A study of Mus musculus with 195 samples.

Results

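A small group of BATSeq libraries was prepared apart from the main single-cell dataset of this study, and its gene expression is described here. The group was chosen by its labels and holds 51 of the 195 samples of the series. It comprises 48 individually barcoded ESC-FCS cells made as technical controls, 1 pool of 48 ESC-FCS cells and 2 pools of 48 ESC-2i cells each. BATSeq counts mRNA molecules at their polyadenylation sites by means of random identifiers added during reverse transcription, so that a value is a number of molecules and not of reads. The main dataset has 96 ESC-FCS and ESC-2i cells, which are used here only as the set against which the separate libraries are compared.

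All cells came from 46C, a mouse embryonic stem cell (ESC) line derived from E14tg2a that carries GFP under the Sox1 promoter, and only small cells in G1 were sorted. ESC-FCS cells were grown with 10% FBS and LIF at 10 ng/ml. ESC-2i cells were grown without serum, with the MEK inhibitor PD0325901 at 1 µM, the GSK3 inhibitor CHIR99021 at 3 µM and LIF at 10 ng/ml. The libraries also differed in preparation. The ESC-2i pools were lysed in buffer RLT and their RNA was cleaned on magnetic beads, whereas the ESC-FCS pool and control cells were lysed without RNA extraction, and these 2 ESC-FCS preparations were made on the same day. Culture medium and RNA preparation therefore cannot be told apart within the separate libraries. No separate cultures are named, so the p-values measure the spread between these libraries, which may be technical.

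Mouse ESCs in serum with LIF are heterogeneous and carry signs of ERK signalling, which primes them for differentiation, and LIF acts through STAT3 to hold them undifferentiated. In 2i, MEK is blocked and β-catenin is stabilised by the loss of GSK3 activity, and cells adopt a more uniform ground state with low DNA methylation. Serum also brings BMP-like signals, whose usual read-out is the Id family of differentiation inhibitors.

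Molecules were summed per gene, leaving out antisense sites. The ESC-FCS pool held 179105 gene molecules from 12053 genes, and the 48 control cells together held 225517 molecules from 12026 genes. The ESC-2i pools were deeper, with 479391 molecules from 14998 genes in pool 1 and 494694 molecules from 14834 genes in pool 2. Single control cells held between 43 and 14547 molecules, with a median of 4265.5, and 42 of the 48 had at least 1000. ERCC spike-in molecules numbered 76 in the ESC-FCS pool, 3890 in the control cells and 0 in each ESC-2i pool. The pools of 1 medium differed by more than sampling noise, with a chi-square per degree of freedom of 4.87 between the ESC-2i pools and 3.24 between the ESC-FCS pool and the control cells, against 13.7 to 23.9 across media. All 48 control cells used a pair of batch and cell barcodes that an ESC-2i cell of the main dataset also used. The part of such shared barcodes in the results was not tested. Fewer cells and less RNA per cell cannot be told apart in pooled libraries, and all levels below are molecules per 10000 gene molecules of a library.

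The libraries carried the markers of embryonic stem cells. The 10 markers summed to 43.7 in the ESC-FCS pool, 40.7 in the control cells and 41.0 and 39.0 in the ESC-2i pools, and of 8 tested 4 were higher in ESC-FCS and 2 lower. Sall4 and Nanog were well covered, but 2 defining markers were almost absent from every library. Pou5f1, which encodes Oct4, had 0, 2, 9 and 4 molecules in the ESC-FCS pool, control cells, ESC-2i pool 1 and ESC-2i pool 2, the order used throughout. Dppa5a had 1 molecule in all. Pou5f1 was also low in the main dataset, at no more than 0.631 per 10000 in any batch. Of 13 matched neural stem cell markers none had enough molecules to be tested, and their sum was at most 0.501. Fibroblast markers summed to at most 0.404. Primitive endoderm markers summed to more in the ESC-2i pools, at 7.16 and 6.31 against 2.62 and 1.82. Most of the ESC-2i sums came from Lama1 and Sparc, the 2 of 3 genes tested that were lower in ESC-FCS. Lamb1, also tested, had a log2 difference, ESC-FCS minus ESC-2i, of 0.39 that was not called. Gata4 had 0, 0, 1 and 1 molecules. Mesendoderm and trophectoderm markers were at 1.62 and 1.33 against 3.75 and 3.38, and the 1 gene tested, Tfap2c, was lower in ESC-FCS.

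The ESC-2i pools held far fewer molecules of short transcripts. Transcripts under 1000 nt made up 17.9% of the ESC-FCS pool's molecules and 22.5% of the control cells', but 7.11% in ESC-2i pool 1 and 3.28% in pool 2. In the main dataset the same share was between 29.0% and 33.1% in every batch of either medium. The median log2 difference between media, ESC-FCS minus ESC-2i, was 3.80 over 110 genes with transcripts under 500 nt in the separate libraries, and it fell to 0.66 at 1000 to 1500 nt and −0.53 at 3000 to 4000 nt. In the main dataset no length class had a median outside −0.06 to 0.07. GC-poor 3′ ends moved the same way, with a median of 1.22 where the last 300 nt held under 30% GC and −0.54 at 45 to 50%. A second fit was therefore made, chosen after these trends were seen, in which the smooth trends with length and GC entered as an offset. Its values are given below for some lists and genes only, and their absence elsewhere does not mean that a difference was unchanged. With that offset the median at transcripts under 500 nt was 0.77. Whether medium or preparation moved the short transcripts cannot be told apart.

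**Figure D1:**
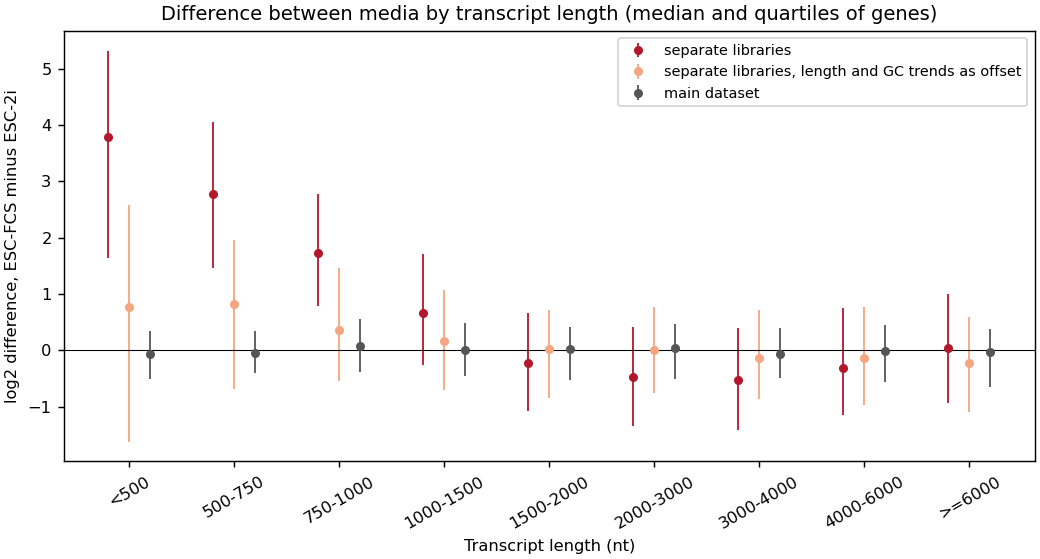
Median log2 difference between ESC-FCS and ESC-2i (y axis; bars are the quartiles of genes) in classes of transcript length in nt (x axis), for the separate libraries, the same libraries with the length and GC trends as an offset, and the main dataset. The separate libraries start at 3.80 for transcripts under 500 nt and cross 0 between 1000 and 2000 nt, while the main dataset stays within −0.06 to 0.07.

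Of 6847 genes tested in the separate libraries, 1229 were higher in ESC-FCS (17.9%) and 1136 were lower (16.6%) at an adjusted p under 0.05, by edgeR's quasi-likelihood test of 2 libraries against 2 with Benjamini-Hochberg adjustment, which gives all adjusted p-values below. These 17.9% and 16.6% are the background set beside the lists, but the share called depended on transcript length. Called higher were 73.6% of genes under 500 nt, 63.2% at 500 to 750 nt and 43.1% at 750 to 1000 nt. At 2000 to 3000 nt the share was 10.1%. Called lower were 4.5% under 500 nt and 22.1% at 2000 to 3000 nt. Members described under a list are mainly those with the lowest p in these same libraries. The even split depended on the scaling: with library totals alone, which moved the median of all genes by −0.30, 979 genes were higher and 1560 lower. With the length and GC offset, 1108 of 6817 genes were higher (16.3%) and 920 lower (13.5%). These were in part other genes. Of the 1229 higher and 1136 lower calls, 827 and 660 were also made with the offset, and 3 genes were called in the opposite direction. The number of calls rested on having both ESC-FCS libraries. Without the ESC-FCS pool 367 genes were higher and 126 lower, and without the control cells 177 were higher and 54 lower, whereas 1110 to 1321 were higher and 1076 to 1111 lower without an ESC-2i pool. Of the calls made with all libraries, 969 higher and 912 lower were shared by the fit without ESC-2i pool 1, and 968 higher and 878 lower by that without pool 2. No gene called with all 4 libraries was called in the opposite direction without 1 of them.

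The main dataset, summed per library batch, gave 122 genes higher (3.96%) and 164 lower (5.32%) in ESC-FCS among 3082 tested. Many of these differences recurred in the separate libraries, which share no library with it. Of the 116 higher genes that could be tested, 93 had the same sign and 56 were called in the same direction, or 48.3%, where 23.5% of all genes tested in both sets were called higher. Of the 149 lower genes that could be tested, 97 had the same sign and 56 were called lower, or 37.6%, where 14.5% of genes were. The shared calls were 8.12% of the higher and 13.1% of the lower calls of the separate libraries on genes tested in both. In the opposite direction, 1 of the higher and 17 of the lower genes were called. Among transcripts of at least 1500 nt, 28 of 70 higher genes recurred (40.0%) and 1 was opposite, where 13.3% of genes were called higher. In the same class 53 of 119 lower genes recurred (44.5%) and 2 were opposite, where 20.2% were called lower. With the length and GC offset 58 of 116 higher genes recurred and 7 were opposite, where 22.2% of genes were called higher. In that fit 54 of 149 lower genes recurred and 13 were opposite, where 12.1% were called lower. In the fits without the offset, both counts of recurring genes were lower when the ESC-FCS pool or the control cells were left out. Such fits rest on a lone ESC-FCS library. Across 2931 genes tested in both sets Pearson's r of the log2 differences was 0.25 and Spearman's rho 0.22, a description over genes, which are not independent.

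**Figure D2:**
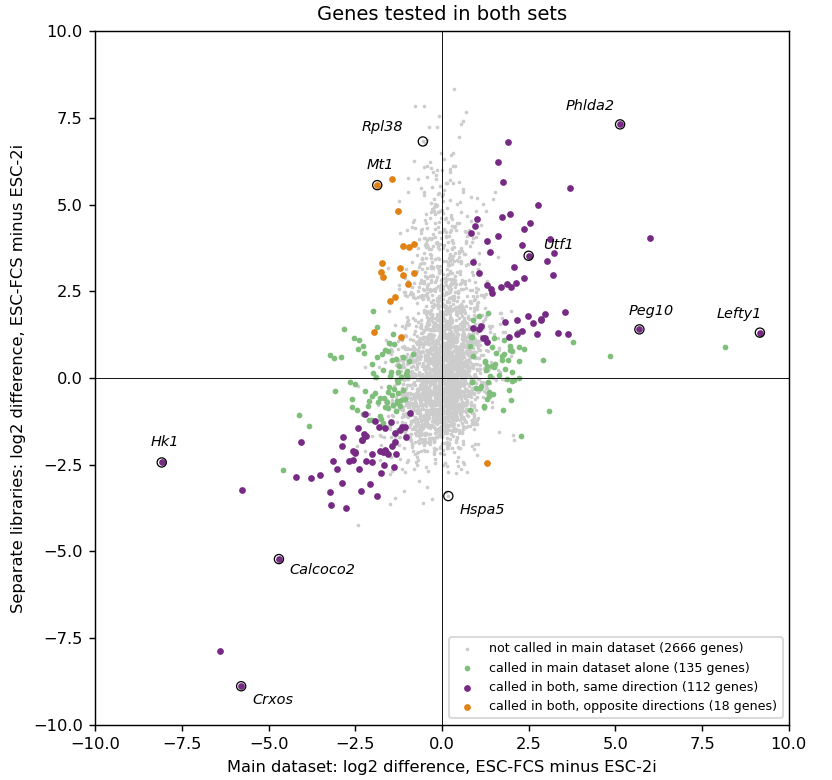
Log2 difference between ESC-FCS and ESC-2i in the main dataset (x axis) and in the separate libraries (y axis), 1 point per gene tested in both, coloured by the calls. The 112 genes called in the same direction lie in the upper right and lower left, and 17 of the 18 called in opposite directions lie in the upper left; genes at 0 in 1 medium, such as Crxos and Lefty1, are placed by the prior count of the fit.

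Among the genes called higher in ESC-FCS in both sets, the imprinted gene Phlda2 (ENSMUSG00000010760, chr7:143501545-143503150 of GRCm38, minus strand), a growth-restraining gene of the placenta, differed most. Its level was 1.90 in the ESC-FCS pool, 1.77 in the control cells, 0.0209 in ESC-2i pool 1 and 0 in pool 2, which rests on 34, 40, 1 and 0 molecules. The ratio between media was 178, with an exact 95% counting interval of 31.0 to 7130, and 22 of the 48 control cells held at least 1 molecule. The fitted log2 difference was 7.31 ± 0.67 (SE, adjusted p = 0.00366), 5.9 with the offset, and 5.13 in the main dataset. The serum-responsive inhibitors of differentiation followed. Id2 was at 1.79, 1.46, 0.0209 and 0.0606, a log2 difference of 5.47 ± 0.54, and Id3 was at 2.96, 1.33, 0.125 and 0.0606, a difference of 4.72 ± 0.57. These genes were picked for large differences called in these libraries, so that their separation by medium is a description. Utf1, a chromatin factor of pluripotent cells (chr7:139943789-139945112), was at 9.66, 5.72, 0.98 and 0.606, a difference of 3.52 ± 0.42 (adjusted p = 0.00439) against 2.50 in the main dataset.

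The other genes named here had the next largest differences among those higher in both sets. Slc25a5, a mitochondrial carrier of ADP and ATP, was at 21.6, 23.7, 1.44 and 0.869, a difference of 4.57 ± 0.50. Stmn1, which destabilises microtubules, was at 1.56, 2.22, 0.167 and 0.101. Ifitm1, an interferon-inducible membrane protein, was at 8.93, 10.4, 0.793 and 0.141. Its call was lost without the control cells (adjusted p = 0.0599). The cytokine gene Mif was at 15.9, 15.4, 1.54 and 0.263 and the cell-cycle gene Cks1b at 1.34, 1.11, 0.146 and 0. Without the ESC-FCS pool or without the control cells their calls were lost, with adjusted p-values of 0.0527 and 0.0649 for Mif and 0.0705 and 0.0829 for Cks1b. The ribosomal protein gene Rps24 and the loci Tpt1-ps3 and Rps24-ps3 also belong here, but they share reads with near-identical copies and are uncertain. Rps24 was at 32.7, 67.9, 4.99 and 1.84, a call lost without the control cells (adjusted p = 0.0538). With Phlda2, Id2 and Id3, all 11 of these genes had larger fitted differences in the separate libraries than in the main dataset, and 7 of them have transcripts under 1000 nt.

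Genes called lower in ESC-FCS in both sets were led by genes absent from the ESC-FCS libraries. Crxos, a homeobox gene of the early embryo, had 0, 0, 127 and 46 molecules, at least 23.9-fold lower in ESC-FCS if 3 molecules over both ESC-FCS libraries are taken as the floor. Its call was lost without the ESC-FCS pool (adjusted p = 0.0625) and without the control cells (adjusted p = 0.0765). Pramef17 had 0, 0, 41 and 46 molecules, at least 12.0-fold lower, a call lost without the control cells (adjusted p = 0.0520). Calcoco2 (chr11:96099326-96111964), a receptor for selective autophagy, was at 0.335, 0.0443, 7.59 and 8.69, a difference of −5.22 ± 0.60 (adjusted p = 0.00436) against −4.71 in the main dataset. The 2 ESC-FCS libraries differed for this gene by more than the ESC-2i pools did, yet both were far below them. Tbx3 (chr5:119670669-119684724), a naive pluripotency factor downstream of LIF, was at 0.223, 0.266, 2.46 and 3.40, a difference of −3.25 ± 0.41 (adjusted p = 0.00475) against −2.34.

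The other genes named here had the next largest differences among those lower in both sets. Myof, a membrane repair protein, was at 0.0558, 0.222, 2.32 and 2.37. Kyat3, an aminotransferase, was at 0.168, 0.177, 2.42 and 2.10, and Rcn1, a calcium-binding protein of the endoplasmic reticulum, at 0.335, 0.310, 3.40 and 3.19. Laptm5, a lysosomal membrane protein, was at 0.0558, 0.133, 1.33 and 2.02, with its call lost without the ESC-FCS pool (adjusted p = 0.0532) or the control cells (adjusted p = 0.0510). The channel gene Trpm1 was at 0, 0.355, 1.86 and 2.71, and Pcsk6, a proprotein convertase that processes Nodal, at 0, 0.488, 2.90 and 2.53. Both calls were lost without the ESC-FCS pool, with adjusted p-values of 0.0624 and 0.0580. Mfge8, a secreted glycoprotein, was at 0.502, 0.0887, 2.82 and 3.86 and lost its call without the control cells (adjusted p = 0.0568). Jakmip1 had 0, 3, 32 and 36 molecules, a ratio of 9.41 (3.09 to 46.8), and lost its call without the ESC-FCS pool (adjusted p = 0.118) or the control cells (adjusted p = 0.0610).

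**Figure D3:**
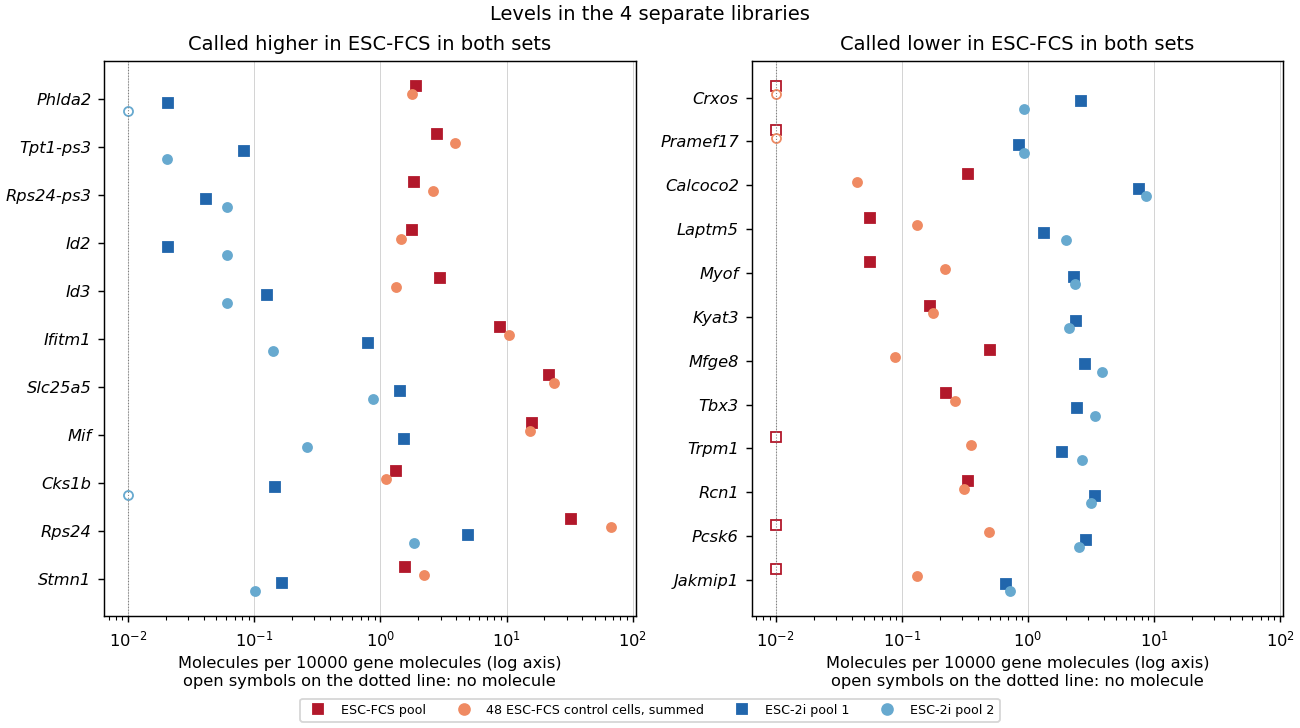
Molecules per 10000 gene molecules (x axis, log scale; open symbols on the dotted line had no molecule) in the 4 separate libraries for genes with the largest differences among those called in both sets, 11 higher in ESC-FCS at left and 12 lower at right. The genes were picked for large differences in these libraries; Phlda2 spans 1.90 to 0 and Calcoco2 0.0443 to 8.69.

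Naive pluripotency factors moved in both directions. Of 13 tested, 3 were higher and 5 lower in ESC-FCS, with a median of −0.74 against −0.10 over all genes and 0.14 with the offset. Of 10 tested in the main dataset 0 were higher and 2 lower, and both of these recurred. Nanog, whose level marks the naive state, was at 6.42, 4.66, 14.7 and 15.2, a difference of −1.16 ± 0.35 (adjusted p = 0.0417) that was lost without the ESC-FCS pool (adjusted p = 0.101) or the control cells (adjusted p = 0.102). The main dataset gave −0.64, which was not called. Klf5, a Krüppel-like factor that sustains self-renewal, went the other way, at 7.15, 7.36, 0.709 and 0.505, a difference of 3.86 ± 0.38 (adjusted p = 0.00366), and 3.76 with the offset. Its difference in the main dataset was −0.09, and the sets differed (interaction adjusted p = 0.000616). Zfp42, which encodes Rex1, was at 4.19, 3.19, 1.04 and 1.09, a difference of 2.06 ± 0.30 (adjusted p = 0.00598). The separate libraries exceeded the main dataset by 2.51 for Zfp42, more than the difference itself (interaction adjusted p = 0.00413). Nr0b1, which encodes Dax1, was at 1.51, 2.17, 0.313 and 0.566, a call lost without the control cells (adjusted p = 0.0855). Klf5, Zfp42 and Nr0b1 were the 3 naive factors called higher in ESC-FCS.

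Among core and formative pluripotency factors 8 of the 13 listed had too few molecules to be tested. Of 5 tested, 4 were higher in ESC-FCS and 0 lower, with a median of 3.52, and 3.16 with the offset. The main dataset had 2 of 4 higher and both recurred. Sox2, a partner of Oct4, was at 2.96, 5.28, 0.584 and 0.404, a difference of 3.37 ± 0.47 (adjusted p = 0.00515), where the main dataset gave 0.47 without a call. Lin28a, which blocks the maturation of let-7, was at 1.28, 4.39, 0.146 and 0.303, a difference of 3.99 ± 0.71 that was 3.11 in the main dataset and lost its call without the control cells (adjusted p = 0.0659). Sall4 was at 7.09, 7.18, 10.4 and 7.18, a difference of −0.02 that was not called.

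Genes named for pluripotency-associated effectors had 2 of 13 higher and 2 lower, or 15.4% each, near the background of 17.9% and 16.6%. Their median was 0.45. Ooep, of the maternal subcortical complex, was at 1.62, 1.91, 0.313 and 0.0809, a call lost without the control cells (adjusted p = 0.0747). Tex19.1, which restrains retrotransposons in germ cells, was lower at 0.335, 0.266, 1.96 and 2.59, and its call was lost without the control cells (adjusted p = 0.0620). Fbxo15, an Oct4 and Sox2 target, was at 2.40, 2.79, 8.51 and 9.02, a difference of −1.45 ± 0.34 that was lost without the ESC-FCS pool (adjusted p = 0.103) or the control cells (adjusted p = 0.0634). Dppa3, which guards methylation in the zygote, was at 1.45, 1.42, 1.69 and 0.384, so the media overlapped, and its difference of 0.74 ± 0.66 was not called (adjusted p = 0.408). Without ESC-2i pool 1 it was called higher (adjusted p = 0.00072).

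Nodal signalling did not move in 1 direction, with 3 of 11 genes higher and 3 lower and a median of −0.20. The ligand Nodal was at 0.893, 0.443, 3.65 and 3.56, a difference of −2.18 ± 0.37 that was −1.55 in the main dataset and lost its call without the control cells (adjusted p = 0.0660). Tdgf1, the Nodal co-receptor Cripto, was at 8.6, 8.96, 3.13 and 3.58, a difference of 1.68 ± 0.33 that lost its call without the control cells (adjusted p = 0.0620). Skil, a repressor of SMAD activity and itself a Nodal target, was at 2.35, 1.37, 0.104 and 0.222, a difference of 3.74 ± 0.48. Lefty1, the secreted Nodal antagonist, was at 1.68, 1.33, 0.855 and 0.606 in the separate libraries and at 4.45, 5.12, 0 and 0 in the main dataset. Its direction thus recurred, but the ESC-2i pools held 41 and 30 molecules, where the ESC-2i cells of the main dataset held 0 and were at least 58.2-fold lower. The difference of 1.31 ± 0.37 in the separate libraries was called (adjusted p = 0.0344) and lost without the ESC-FCS pool (adjusted p = 0.126), the control cells (adjusted p = 0.125) or ESC-2i pool 2 (adjusted p = 0.117). The sets differed by the interaction (adjusted p = 0.000393).

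Most of the tested targets and feedback regulators of ERK, the kinase that PD0325901 silences, were higher in ESC-FCS. Of 12 tested, 8 were higher and 0 lower, with a median of 2.02, and 8 were higher with the offset, with a median of 1.74. Only 2 had enough molecules in the main dataset and neither was called. Members not called in the separate libraries included Etv5, Etv1 and Ier3, with differences of −0.54, −0.52 and 1.53. Summed over the list, the levels were 14.7, 13.4, 10.2 and 11.6. Spry1, a feedback inhibitor of receptor tyrosine kinases, was at 1.17, 0.710, 0.0209 and 0.0809, a difference of 4.37 ± 0.63 (adjusted p = 0.00573) that was lost without the ESC-FCS pool (adjusted p = 0.0523). Dusp4, a MAP kinase phosphatase, was at 1.34, 0.665, 0.125 and 0.162, a difference of 3.02 ± 0.52 that was lost without the ESC-FCS pool (adjusted p = 0.0624). The immediate-early gene Egr1 had 12, 7, 2 and 0 molecules, a ratio of 22.9 (5.52 to 202) (adjusted p = 0.0108), and fell below the count filter without the ESC-FCS pool or the control cells. Spred2, an inhibitor of RAF activation, was at 0.782, 0.532, 0.125 and 0.202 and lost its call without the ESC-FCS pool (adjusted p = 0.104) or the control cells (adjusted p = 0.0833).

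Wnt and β-catenin targets, which CHIR99021 switches on, leaned the other way. Of 8 tested, 4 were lower in ESC-FCS and 1 higher, with a median of −1.63. With the offset 2 were lower, 1 was higher and the median was −0.97. Members not called included Axin2 and Tcf7, with differences of 0.16 and −0.34. Sp5, a direct β-catenin target, had 1, 0, 40 and 65 molecules, a ratio of 43.6 in favour of ESC-2i (7.66 to 1739), and lost its call without the control cells (adjusted p = 0.0663). Nkd1, a Wnt feedback inhibitor, had 0, 0, 19 and 35 molecules, at least 7.48-fold lower in ESC-FCS, and lost its call without the ESC-FCS pool (adjusted p = 0.0740) or the control cells (adjusted p = 0.0833). Cdx1 had 1, 2, 19 and 30 molecules, a ratio of 6.79 (2.19 to 34.0), with a call that was lost without the ESC-FCS pool (adjusted p = 0.173), the control cells (adjusted p = 0.128) or ESC-2i pool 1 (adjusted p = 0.0562) and with the offset (adjusted p = 0.0754). Ccnd1, which encodes cyclin D1, was at 0.502, 0.621, 1.92 and 1.64, a difference of −1.35 ± 0.39. It was lost without the ESC-FCS pool (adjusted p = 0.171), the control cells (adjusted p = 0.103) and with the offset (adjusted p = 0.368). Tcf7l1, the repressor of Wnt targets that GSK3 inhibition relieves, was the gene higher in ESC-FCS, at 1.73, 1.73, 0.501 and 0.829, a call lost without the ESC-FCS pool (adjusted p = 0.0705) or the control cells (adjusted p = 0.104).

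The LIF, STAT3 and BMP-Id genes had 5 of 11 higher and 1 lower, with a median of 0.71, and 4 higher and 0 lower with the offset. The Id genes carried most of it. Id1 had 30, 18, 0 and 0 molecules, at least 38.5-fold higher in ESC-FCS, and 10 of the 48 control cells held it. In the main dataset it had too few molecules to be tested, at 0.614, 0.903, 0.0574 and 0, the order being ESC-FCS batches 1 and 2 and ESC-2i batches 1 and 2. Pim1, a kinase induced by STAT3, was at 1.56, 1.64, 0.459 and 0.708, a difference of 1.75 ± 0.38 that was lost without the ESC-FCS pool (adjusted p = 0.0618) or the control cells (adjusted p = 0.0993).

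Among writers and erasers of DNA methylation 6 of 9 were higher in ESC-FCS and 0 lower, with a median of 1.47, and 5 with the offset, with a median of 1.35. Of 6 tested in the main dataset 2 were higher and 1 lower, and 1 of the higher genes recurred. The interaction was called for 6 of 9. The gene lower in the main dataset, Uhrf1, had −1.45 there and 0.51 without a call in the separate libraries (interaction adjusted p = 0.0235). Dnmt3l, the cofactor of the de novo methyltransferases, was at 2.18, 2.35, 1.15 and 1.03, a difference of 1.35 ± 0.32 (adjusted p = 0.0201) where the main dataset gave 2.30. Its call was lost without the ESC-FCS pool (adjusted p = 0.0645) or the control cells (adjusted p = 0.118). The dioxygenases that oxidise 5-methylcytosine were also higher. Tet1 was at 2.51, 2.62, 0.417 and 0.526, a difference of 2.73 ± 0.34 (adjusted p = 0.00461) that was 0.85 and not called with the offset (adjusted p = 0.0821). Tet2 was at 1.73, 1.64, 0.188 and 0.243, a difference of 3.24 ± 0.39 that was 1.75 with the offset. Neither was called in the main dataset, and both differed between the sets. Gadd45a and Gadd45b, stress genes linked to demethylation, were at 1.34, 1.33, 0.125 and 0.0809 and at 1.40, 0.842, 0.334 and 0.303. The call of Gadd45b was lost without the ESC-FCS pool (adjusted p = 0.0767) or the control cells (adjusted p = 0.0629).

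Polycomb genes had 4 of 14 higher and 0 lower in ESC-FCS, with a median of 0.81, and 6 higher and 1 lower with the offset. Rbbp4, a histone-binding subunit, was at 4.86, 3.68, 1.09 and 0.990, a difference of 2.31 ± 0.31 (adjusted p = 0.00515) that was −0.77 and not called in the main dataset. Imprinted genes had 5 of 8 higher and 2 lower, with a median of 1.41. Meg3, a maternally expressed non-coding RNA, was at 1.62, 1.55, 0.459 and 0.606, and its call was lost without the ESC-FCS pool (adjusted p = 0.0550) or the control cells (adjusted p = 0.0786). Peg10, a retrotransposon-derived gene expressed from the paternal allele, was at 3.18, 4.57, 2.06 and 1.56 in the separate libraries and at 2.92, 3.51, 0 and 0.103 in the main dataset. Its difference of 1.40 ± 0.38 (adjusted p = 0.0287) was lost without the ESC-FCS pool (adjusted p = 0.0545), the control cells (adjusted p = 0.155) or ESC-2i pool 2 (adjusted p = 0.05). Cdkn1c, which encodes the cell-cycle inhibitor p57, was lower in ESC-FCS, at 0.223, 0.399, 5.15 and 6.19, a difference of −3.84 ± 0.42 (adjusted p = 0.00431). In the main dataset Cdkn1c stood on the other side, at 2.15, 0.402, 0.115 and 0.0516, and the sets differed (interaction adjusted p = 0.000357).

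Germline and early-embryo genes were scarce, with 1 higher and 1 lower of 2 germline genes tested and 2 lower of 3 genes of the 2-cell stage. The meiotic chromosome gene Sycp3 had 13, 18, 0 and 0 molecules, at least 24.9-fold higher in ESC-FCS. Sohlh2, a germ-cell transcription factor, had 0, 2, 34 and 64 molecules, a ratio of 20.4 (5.49 to 170) in favour of ESC-2i, and lost its call without the ESC-FCS pool (adjusted p = 0.0824) or the control cells (adjusted p = 0.0634). Zscan4d and Zscan4e, telomere-regulating genes of the 2-cell embryo, were seen in the ESC-2i pools alone. Zscan4e had 0, 0, 80 and 69 molecules, at least 20.6-fold lower in ESC-FCS, and Zscan4d 0, 0, 19 and 21, at least 5.54-fold lower. The call of Zscan4d was lost without the ESC-FCS pool (adjusted p = 0.0777) or the control cells (adjusted p = 0.0858). The Zscan4 genes are near-identical copies and their split is uncertain. Neither gene had a molecule in the main dataset. Ly6a, which encodes the surface antigen Sca-1, had 0, 0, 108 and 23 molecules, at least 18.1-fold lower in ESC-FCS, and lost its call without the ESC-FCS pool (adjusted p = 0.110) or the control cells (adjusted p = 0.129).

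Cholesterol synthesis had 3 of 20 genes higher and 5 lower in ESC-FCS, or 15.0% and 25.0%, with a median of −0.84, and −0.37 with the offset. Hmgcs1, at the entry of the mevalonate pathway, was at 2.18, 2.17, 9.10 and 8.25, a difference of −1.71 ± 0.33 (adjusted p = 0.0116), and −1.04 in the main dataset. Without the ESC-FCS pool or the control cells its adjusted p was 0.0728 and 0.0621. Cyp51, a sterol demethylase, was at 0.502, 0.355, 1.96 and 2.24, with 0.0586 and 0.0778 in the same fits. Fdft1, which makes squalene, was at 0.447, 0.177, 2.25 and 1.98, and was lost without the control cells (adjusted p = 0.0728). Fdps, an enzyme of the same pathway, went the other way at 1.34, 1.38, 0.459 and 0.384. Its adjusted p was 0.0534 without the ESC-FCS pool and 0.0815 without the control cells.

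Glycolysis had 2 of 15 genes higher and 2 lower, or 13.3% each beside the background of 17.9% and 16.6%. The median was −0.11, and 0.52 with the offset. Gapdh was at 22.5, 27.1, 4.34 and 1.96 and lost its call without the control cells (adjusted p = 0.0515). The hexokinases, which trap glucose in the cell, split. Hk1 was at 0.502, 0.222, 2.42 and 2.22 in the separate libraries, a difference of −2.44 ± 0.43, and at 0, 0, 2.58 and 1.96 in the main dataset, where ESC-FCS was at least 17.3-fold lower. Hk2 was at 2.01, 3.59, 1.15 and 1.33, a difference of 1.5 ± 0.40. The main dataset gave −0.61 for Hk2 without a call, and the sets differed (interaction adjusted p = 0.0442). Without the control cells the adjusted p was 0.0699 for Hk1 and 0.182 for Hk2. Pfkm, the muscle type of phosphofructokinase, had 1, 0, 46 and 49 molecules, a ratio of 39.5 in favour of ESC-2i (6.91 to 1575), and lost its call without the control cells (adjusted p = 0.0634). Genes of amino acid stress and serine synthesis had 2 of 14 higher and 2 lower, or 14.3% each, near the background of 17.9% and 16.6%, with a median of −0.84.

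The largest shifts by count were in lists of short transcripts. The median transcript had 791 nt in the ribosomal protein list and 693.5 nt in the respiratory chain list. Of all genes at 750 to 1000 nt and at 500 to 750 nt, 43.1% and 63.2% were called higher. Of 76 cytosolic ribosomal protein genes 65 were higher in ESC-FCS and 0 lower, with a median of 3.70, and summed they took 1086, 1661, 298 and 117 per 10000. Only 4 of 76 were higher in the main dataset, where the median was 0.12 and their sum was between 1642 and 1990 in every batch. With the length and GC offset 56 were still higher and 2 lower, with a median of 2.10. Rps18, of the small subunit, was at 16.5, 16.0, 0.146 and 0.0404, a difference of 7.68 ± 0.63 (adjusted p = 0.00366) that was 5.5 with the offset. Many ribosomal protein genes have near-identical copies. Nuclear subunits of the respiratory chain had 55 of 76 higher and 0 lower, with a median of 2.80, and with the offset 36 were higher and 1 lower, with a median of 0.93. Cox7b, a subunit of cytochrome c oxidase, was at 10.3, 9.53, 0.417 and 0.202, and Cox7c at 2.07, 2.53, 0.0417 and 0.0404. Their differences in the main dataset were 0.01 and −0.01. Transcripts of the mitochondrial genome had 3 of 13 higher and 1 lower, with a median of 0.41 that was −1.91 with the offset, so their direction depended on it.

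Proteasome subunits had 11 of 35 higher and 8 lower in ESC-FCS, with a median of 0.80. Psma1, of the core particle, was at 4.80, 4.39, 0.647 and 0.728, a difference of 3.02 ± 0.31, and 1.05 in the main dataset, where it was also called. Psmb5, the chymotrypsin-like subunit, was at 9.10, 5.28, 0.813 and 0.182 and lost its call without the ESC-FCS pool (adjusted p = 0.0509) or the control cells (adjusted p = 0.0550). Translation factors had 10 of 55 higher and 6 lower, or 18.2% and 10.9% beside the background of 17.9% and 16.6%. Their median was 0.23, and −0.07 when library totals alone set the scale. Genes of the Myc network and nucleolus had 1 of 15 higher and 2 lower, or 6.67% and 13.3%, below that background. Their median was 0.61, and −0.20 with the offset.

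The medium difference itself differed between the 2 sets for 744 of 5550 genes (13.4%) by the interaction of medium and set. It was larger in the separate libraries for 540 and smaller for 204, and 357 had opposite signs. Of those with transcripts under 1000 nt, 282 were larger and 3 smaller. With the offset 593 of 5486 genes differed (10.8%), 444 of them in both fits. Metallothioneins, small proteins that bind zinc and copper, showed the contrast most plainly. Mt1 (chr8:94179082-94180327) was at 10.6, 12.2, 0.438 and 0.141 in the separate libraries and at 21.2, 13.2, 60.3 and 67.4 in the main dataset. Its difference was 5.56 ± 0.60 in the separate libraries and −1.87 in the main dataset, each called, and 4.95 with the offset. Mt2, its neighbour on chromosome 8 (94172664 to 94173568), was at 10.5, 9.09, 0.292 and 0.141 against 13.2, 10.5, 30.3 and 35.0. Its difference was 5.75 ± 0.48 against −1.44. Of 6 metallothionein and iron storage genes tested, 3 were higher in ESC-FCS and 0 lower in the separate libraries, while 0 were higher and 2 lower in the main dataset.

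Other genes with opposite signs included 4 with transcripts of 457 to 1109 nt. Rpl38, a ribosomal protein gene, was at 7.31, 6.70, 0.0626 and 0.0809, a difference of 6.82 ± 0.42, and −0.56 without a call in the main dataset. Rps16 was at 4.86, 4.92, 0.125 and 0.0404, and the non-coding locus 2410006H16Rik at 4.47, 7.18, 0.146 and 0.0606. Cox7a2 was at 5.03, 5.45, 0.271 and 0.202. All 4 genes lay between 4.22 and 13.3 in every batch of the main dataset. The other genes were higher in the ESC-2i pools than in the ESC-FCS libraries. Hspa5, the chaperone BiP of the endoplasmic reticulum (chr2:34771970-34777547), was at 1.28, 1.20, 15.9 and 16.3, a difference of −3.41 ± 0.37 (adjusted p = 0.00430), and at 3.00, 1.91, 2.58 and 1.86 in the main dataset, a difference of 0.18. Its transcript is 2613 nt long and the difference was −3.39 with the offset. Tuba1a, an α-tubulin, was at 1.17, 1.11, 7.01 and 8.27 and was called in the opposite direction in the main dataset, with differences of −2.45 and 1.30. Lima1, an actin-binding protein, was at 0.838, 0.754, 4.98 and 5.88, and the histone variant gene H2afx at 1.62, 1.51, 11.4 and 9.10. Hsph1, a cochaperone of HSP70, was at 0.893, 1.37, 7.95 and 10.9.

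**Figure D4:**
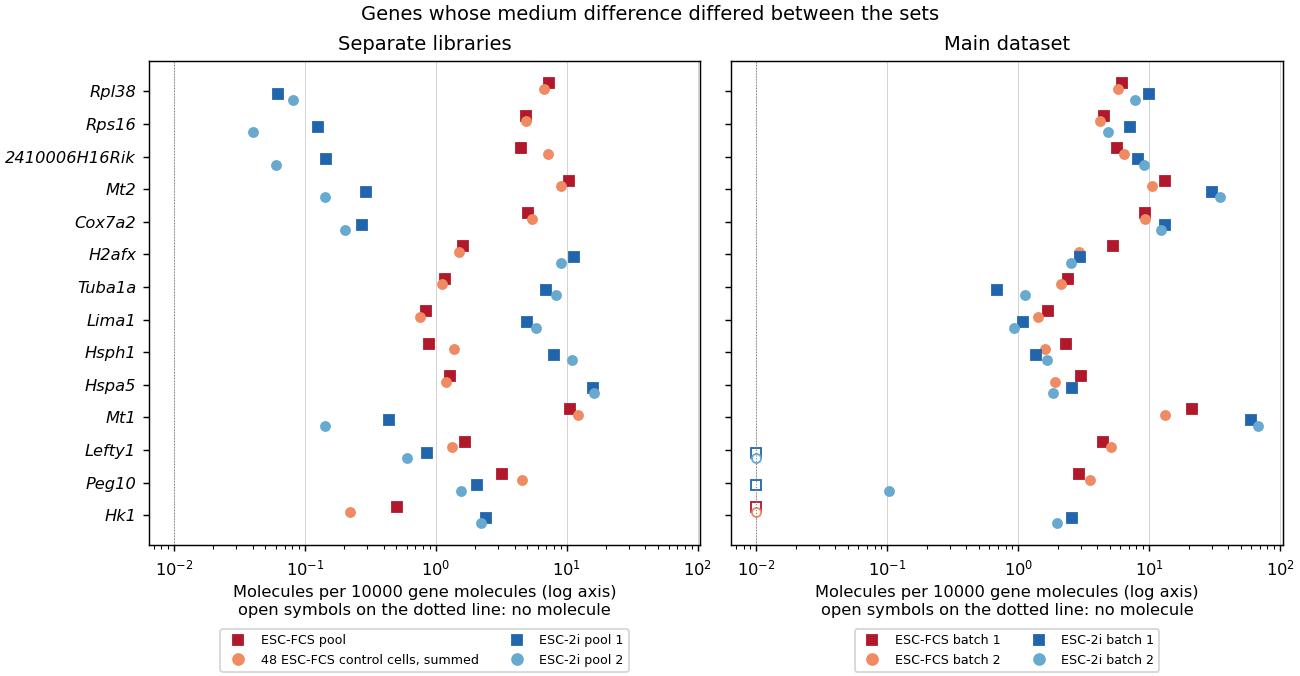
Molecules per 10000 gene molecules (x axis, log scale; open symbols on the dotted line had no molecule) in the 4 separate libraries (left) and the 4 batches of the main dataset (right) for 14 genes whose medium difference differed between the sets. Mt1 runs from 10.6 and 12.2 in ESC-FCS to 0.438 and 0.141 in ESC-2i at left, and from 21.2 and 13.2 to 60.3 and 67.4 at right.

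Chaperones as a list had 1 of 14 genes higher and 3 lower, with a median of −0.44 that was 0.15 with the offset. Hspd1 and Hspe1, the partners of the mitochondrial chaperonin, went opposite ways. Hspd1, with a transcript of 2423 nt, was at 4.24, 3.06, 18.0 and 18.2, and Hspe1, with 774 nt, at 6.70, 9.13, 1.04 and 0.222. Their differences were −2.03 ± 0.37 and 3.93 ± 0.70, both lost without the control cells, with adjusted p-values of 0.0505 and 0.0694. They were 0.17 and 0.16 in the main dataset.

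Actin and serum response genes had 5 of 20 higher and 2 lower, or 25.0% and 10.0% beside the background of 17.9% and 16.6%, with a median of 0.73. Actb was at 24.6, 43.9, 6.95 and 4.67, a difference of 2.87 ± 0.56 that was 3.53 with the offset, and Tmsb10, which sequesters actin monomers, at 2.68, 6.61, 0.0834 and 0.0404. Neither was called in the main dataset, with differences of 0.08 and −0.02. Intermediate filament, annexin and S100 genes had 7 of 13 higher and 2 lower, with a median of 2.01, and 8 higher and 1 lower with the offset. Of 9 tested in the main dataset 0 were higher and 1 was lower.

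Cell-cycle genes of G1 had 2 of 10 higher and 2 lower, or 20% each, near the background of 17.9% and 16.6%. The median was 0.27, and −0.00 under library totals alone. Cdk2, the kinase of the G1 to S transition, was at 4.3, 2.79, 0.647 and 0.687, a difference of 2.67 ± 0.33 (adjusted p = 0.00447). The separate libraries exceeded the main dataset by 3.48 for Cdk2, more than the difference itself (interaction adjusted p = 0.00239). Cdkn1b, which encodes the inhibitor p27, was at 0.893, 0.842, 0.0417 and 0.0404 and lost its call without the control cells (adjusted p = 0.0501). Ccnd3, which encodes cyclin D3, was lower at 2.07, 1.24, 4.84 and 5.84, a difference of −1.43 ± 0.33 that was −1.16 and called in the main dataset. It was lost without the ESC-FCS pool (adjusted p = 0.0666), without the control cells (adjusted p = 0.108) and with the offset (adjusted p = 0.0853).

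Adhesion and basement membrane genes closed the range. Cadherin and adhesion genes had 4 of 14 higher and 2 lower, with a median of 0.33. Epcam, an epithelial adhesion molecule, was at 2.12, 2.88, 0.647 and 1.31, a difference of 1.67 ± 0.42, and 2.85 in the main dataset. It was lost without the ESC-FCS pool (adjusted p = 0.0656) or the control cells (adjusted p = 0.161). Itgb5, an integrin subunit, was lower at 0.279, 0.177, 2.27 and 2.59 and was lost without the control cells (adjusted p = 0.0505). Lama1, a laminin chain laid down by primitive endoderm, was at 0.168, 0.133, 3.07 and 2.34, a difference of −3.87 ± 0.46 (adjusted p = 0.00439). Sparc, a matrix glycoprotein, was at 0.726, 0.754, 2.90 and 2.63, a difference of −1.60 ± 0.34, and −2.25 in the main dataset, where it was also called. It was lost without the ESC-FCS pool (adjusted p = 0.0905) or the control cells (adjusted p = 0.0778).

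**Figure D5:**
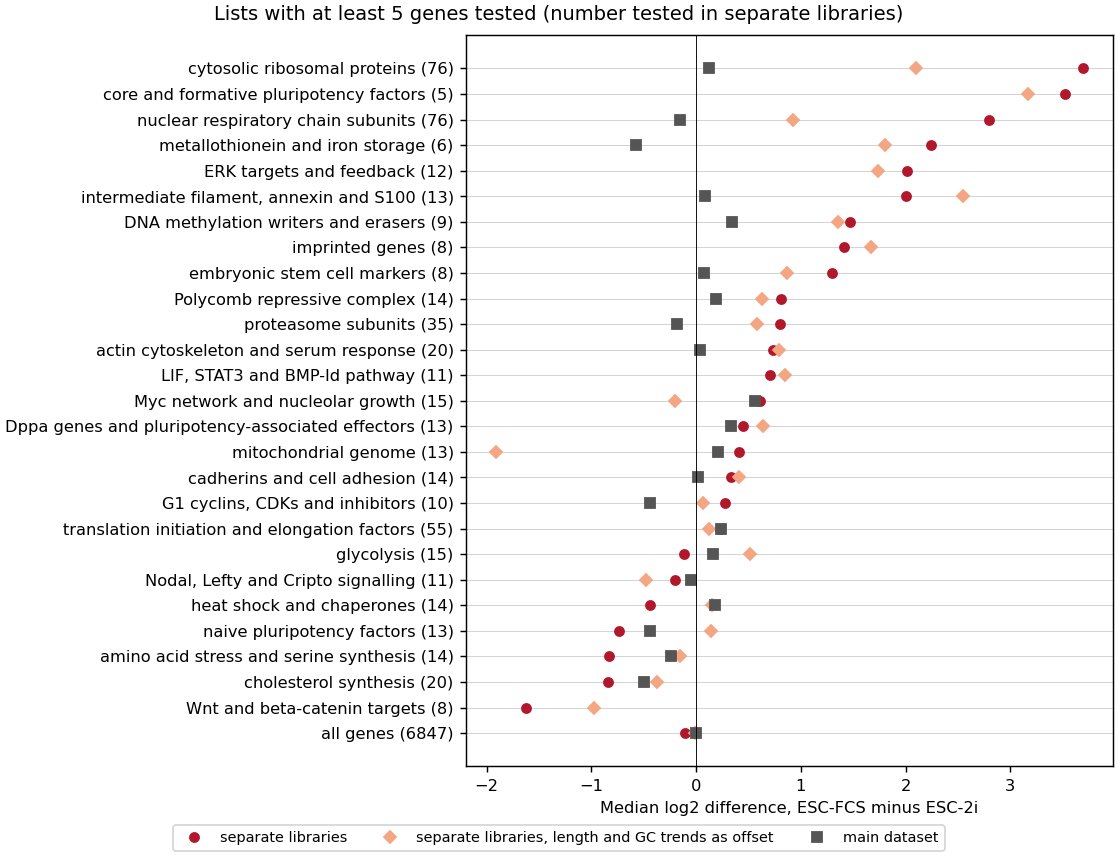
Median log2 difference between ESC-FCS and ESC-2i (x axis) over the tested members of each gene list (y axis; number tested in the separate libraries in parentheses), for the separate libraries without and with the length and GC offset and for the main dataset. Ribosomal protein and respiratory chain genes lie at 3.70 and 2.80 in the separate libraries and at 0.12 and −0.16 in the main dataset. Core and formative pluripotency factors lie at 3.52 in the separate libraries. Their main dataset median of 1.48, over 4 genes tested, is not drawn, as lists with under 5 genes tested there have no mark.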

How the data were processed

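The authors deposited, for each cell or pool, the count of distinct molecule identifiers (8 bases) at each polyadenylation site. Reads had been aligned with GSNAP to GRCm38, and non-unique alignments and those of mapping quality under 30 were dropped. Reads were assigned to a gene at or up to 20 kb upstream of their 3′ end, near-identical identifiers of a gene were merged, and sites within 12 nt were joined. Non-unique reads of gene copies are thus missing. The study left mitochondrial transcripts out of its own analyses, but the files hold them. The submitters' processing notes name HTSeq and R 3.0.2. Counts were summed per ENSMUSG gene without antisense sites and scaled to 10000 gene molecules. Symbols matched 21052 of 21514 genes through GENCODE for GRCm38, which also gave coordinates and transcripts.

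The 48 control cells were summed, as cells are not replicates. Genes passing filterByExpr (minimum count 10) were tested with edgeR 4.0.16 (R 4.3.3, TMM factors, two-sided quasi-likelihood test, Benjamini-Hochberg adjusted p under 0.05 over all genes tested). The main dataset was summed over cells with at least 1000 molecules per batch, 19 and 16 ESC-FCS and 17 and 16 ESC-2i cells. The difference between the sets was the interaction of medium and set over these 8 libraries. Offsets were loess trends (span 0.4), fitted for each library over 6817 genes with a transcript. The log2 level of a library minus the mean over libraries was fitted on transcript length. The remainder was then fitted on GC of the last 300 nt. DESeq2 1.42.0 was an alternative. On simulated counts for the separate libraries, 54% of 200 genes changed 4-fold were recovered among 6612 genes tested, with 2 false calls.

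The genes, the 32 lists and the libraries were chosen with earlier results of these data known. Genes were named by rule. The rule took the 12 largest differences per direction called in both sets with at least 50 molecules. It took the 5 smallest interaction p-values per direction with opposite signs. From each list it took up to 4 members with the lowest p in the separate libraries, so that their differences are a description. Genes the study names (Nanog, Sox2, Nes, Zfp42, Lefty1, Dnmt3l, Dppa3, Ly6a) were added. Some genes that met this rule are not reported here. Nes had 5, 1, 7 and 5 molecules and was not tested. Alternatives were RLE factors, library totals, DESeq2, count filters, reads, subsets of cells, sites or genes, identifier corrections, offsets and leaving out each library. Intervals and floors (3 counts over a medium) cover counting error only.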

Additional observations from a re-analysis of the deposited data

Results flagged for a closer look

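For the 50 genes below the difference between media, ESC-FCS minus ESC-2i on the log2 scale, was not the same in the separate libraries and in the main dataset. What singled them out is a test of that contrast itself, the interaction of medium and set by edgeR's quasi-likelihood test over 8 libraries, with adjusted p-values from 3.49e-05 to 0.0465. The values in parentheses are the difference in the separate libraries minus that in the main dataset. Where a gene had no molecule in 1 medium, as Lefty1 and Hk1 did in the main dataset, the fitted value depends on the prior count and is no measure of size.

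Among genes called higher in ESC-FCS in both sets the separate libraries gave the larger value for Tpt1-ps3 (4.52), Rps24-ps3 (3.82), Id3 (2.72), Ifitm1 (2.90), Slc25a5 (3.54), Mif (3.41), Rps24 (3.33), Stmn1 (2.42) and Psma1 (1.94). Genes of the ribosome, respiratory chain and proteasome beyond these were Rpl38 (7.33), Rps16 (6.52), Rps18 (6.94), Cox7a2 (5.17), Cox7b (5.23), Cox7c (5.91) and Psmb5 (3.35), together with the locus 2410006H16Rik (6.54). Metallothioneins stood among the largest, with Mt1 (7.41) and Mt2 (7.17).

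Pluripotency and signalling genes larger in the separate libraries were Sox2 (2.88), Zfp42 (2.51), Klf5 (3.91), Tdgf1 (1.70), Tcf7l1 (2.44) and Ooep (2.48). Those linked to DNA methylation, Polycomb and imprinting were Tet1 (2.34), Tet2 (3.53), Gadd45b (3.63), Rbbp4 (3.05) and Meg3 (1.92). Genes of metabolism, chaperones, cytoskeleton and cell cycle were Fdps (2.46), Gapdh (2.58), Hk2 (2.09), Hspe1 (3.73), Tmsb10 (6.44), Actb (2.78), Cdkn1b (6.42) and Cdk2 (3.48). For genes such as Zfp42, Hk2, Cdk2 and Cdkn1b (4.57 in the separate libraries) the value exceeded the difference in the separate libraries. The fitted main dataset difference of these genes thus had the opposite sign. The values were smaller in the separate libraries, or opposite, for Tuba1a (−3.78), Hspa5 (−3.58), Lima1 (−3.13), Hsph1 (−3.14), H2afx (−3.04), Hspd1 (−2.23), Cyp51 (−2.91), Pfkm (−5.85) and Cdkn1c (−7.82). For Lefty1 (−8.88), Peg10 (−4.42) and Hk1 (6.67) the direction was the same in both sets and the size differed. The separate ESC-2i pools were prepared unlike the other libraries, and the part of preparation in these differences cannot be told apart from that of the set.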

How the results depend on the processing

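The counts of 1229 genes higher and 1136 lower in ESC-FCS stayed within 1.5 times under RLE factors, library totals, subsets of cells, sites or genes, both identifier corrections and the offsets with all libraries. DESeq2 gave 660 and 362, with 37 recurring higher calls. With no filter on low counts 1804 were lower. With at least 10 molecules in each library, which left 2902 genes, the counts were 462 and 488, with 26 and 33 recurring. With reads in place of molecules 792 were higher and 33 recurred. Leaving out 1 library gave 177 to 1321 higher and 54 to 1111 lower, with 14 to 63 recurring higher and 11 to 62 recurring lower calls. The lowest came without the control cells, when the lone ESC-FCS library is assumed to vary like the ESC-2i pools. The number of genes whose medium difference differs between the sets was 374 without the control cells and 1301 without ESC-2i pool 1. With the length and GC offset, leaving out 1 library gave 509 to 818 lower and as few as 31 recurring lower calls. The cause of these shifts was not tested.

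Of 97 named genes called, DESeq2 kept 80 of 96 tested, reads 81 of 97 and the offset 93 of 97. Without the ESC-FCS pool 64 of 96 were kept, without the control cells 47 of 95. The log2 difference of Dppa3, at 0.74 and not called, was 2.17 without ESC-2i pool 1 and called, −0.07 without ESC-2i pool 2, −0.88 with the length offset, −1.02 with the length and GC offset (adjusted p = 0.0762), and −0.29, −1.45, −0.87 and −0.71 with that offset without ESC-2i pool 1, ESC-2i pool 2, the ESC-FCS pool and the control cells (adjusted p from 0.00471 to 0.720). No paired analysis was possible because the numbers in the labels name wells or pools and do not tie an ESC-FCS library to an ESC-2i library. At these depths, genes under about 10 molecules could not be tested.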
